A study of Saccharomyces cerevisiae with 12 samples.

Results

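The comparison described here is that of Saccharomyces cerevisiae BY4741 grown with 1 µg/mL PeAfpA (libraries 2A, 2B and 2C) with the same strain grown without the protein (libraries 1A, 1B and 1C), which takes in 6 of the 12 RNA-seq libraries of the study and 5909 of the 6600 features counted. PeAfpA is a small cationic antifungal protein secreted by the mould Penicillium expansum, and the study asked which yeast genes respond to it at low doses. All 6 libraries come from flask cultures sampled after 20 h at 30 °C in yeast extract, peptone and dextrose medium, 1 library per flask, and the letters A, B and C number the flasks of each dose. The other 6 libraries, grown for the same time with 2 or 4 µg/mL PeAfpA, entered the fit and are used only where a gene is set against those doses. BY4741 is a haploid laboratory strain of mating type a that lacks LEU2, URA3 and MET17 and keeps a part of HIS3, so that every culture, controls included, carries these deletions. The labels call the material mycelia, although the strain is a budding yeast.

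Yeast cells that have used up their glucose turn from fermentation to ethanol, fatty acids and stored carbohydrate. The Mediator complex, of which Rox3 is a subunit, passes signals from gene-specific activators to RNA polymerase II, and Hrp1 binds new transcripts so that they are cleaved, polyadenylated and exported. The yeast cell wall is a net of glucan and chitin with an outer layer of mannoproteins, which is loosened and rebuilt whenever cells bud and separate.

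The total count per library was between 7946071 (2C) and 9573555 (2B) in the treated libraries and between 8696214 and 8991943 in the controls. LEU2, URA3 and MET17 had 0 counts in all 12 libraries and HIS3 had 381 to 649, as the strain's genotype requires. The a-cell receptor gene STE2 had 855 to 4740 counts, and the α-cell receptor gene STE3, at 94 to 299 counts, was not at 0. Over the 12 libraries the α-cell genes SAG1, MF(ALPHA)1 and MF(ALPHA)2 had 341 to 1100, 108 to 780 and 0 to 27 counts. The a-cell genes AGA2 and ASG7 had 273 to 955 and 81 to 274, so that SAG1 was not below them. The a-cell genes BAR1, MFA1, MFA2 and STE6 had 214 to 2213, 1001 to 3052, 1783 to 4756 and 761 to 2498. One treated library stood apart from its replicates. In 2A, 452 genes were at least 1 higher (log2) and 250 at least 1 lower than the mean of 2B and 2C, against 76 and 60 genes for 2B, 48 and 279 for 2C, and 36 to 141 genes in all for each control set against its own replicates. The 50 most abundant genes held 21.5% of the counts of 2A and 16.1% to 19.0% of those of the other 5 libraries, and the TMM scaling factor of 2A was 0.846 where those of the other 5 were 1.02 to 1.12. Outside this comparison, library 4C (4 µg/mL) had similar traits. It had 606 genes at least 1 from the mean of its replicates, a share of 22.5% and a factor of 0.808. Because 2A stood apart from 2B and 2C, values are given for each library, and 2 classes of genes are told apart. Genes of neither class are named as well. The shared class holds genes whose 3 treated libraries all lay beyond every control and at least 0.5 (log2) from the control mean. The 2A-alone class holds genes for which 2A lay beyond every control and at least 1.0 from their mean while 2B and 2C were both within 0.5 of it.

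**Figure D1:**
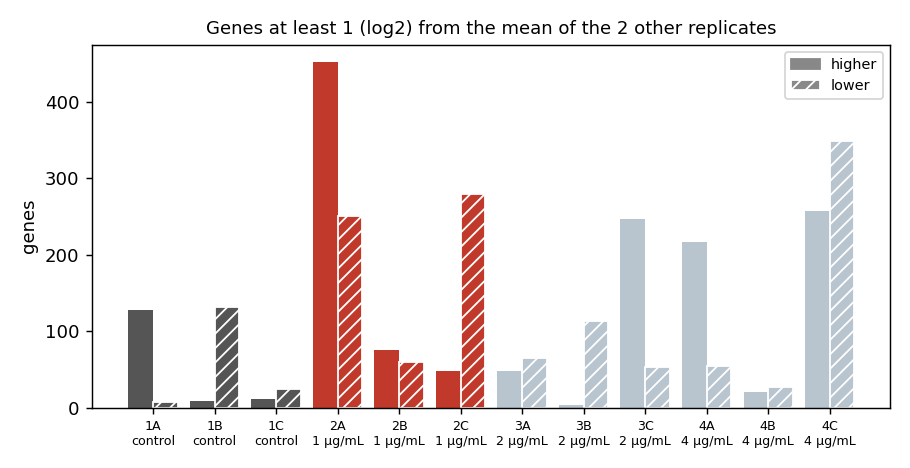
Number of genes (vertical axis) that lay at least 1 (log2 CPM) above (plain bars) or below (hatched bars) the mean of the 2 other replicates, for each of the 12 libraries in order of dose. Library 2A had 702 such genes, against 136 in 2B, 327 in 2C and at most 141 in a control. Library 4C, of 4 µg/mL, had 606.

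The promoters of the genes to which the results return are given first, from 250 bases before to 50 bases after the annotated start of the gene, as read from the R64 genome of RefSeq. Capitals mark every match, on either strand, to a motif searched for, and the 5′ to 3′ direction is that of the gene. The motifs were AGGGG (the core of the stress response element bound by Msn2 and Msn4), GAANNTTC (the core of the heat shock element), CGATGAG (the PAC element of ribosome biogenesis genes), AAAAATTTT (the core of the RRPE element of the same genes), GATAAG (bound by the GATA factors of nitrogen regulation), ACGCGT (the MluI cell cycle box), CACGTG (the E-box of Cbf1 and Pho4) and the site of the haem-responsive factor Hap1. ROX3 and HRP1 are shown because they had the smallest p-values in this comparison, and OLE1 and FAA4 because they are the fatty acid genes that DESeq2 called.
ROX3 (chrII:44869-45168, minus strand): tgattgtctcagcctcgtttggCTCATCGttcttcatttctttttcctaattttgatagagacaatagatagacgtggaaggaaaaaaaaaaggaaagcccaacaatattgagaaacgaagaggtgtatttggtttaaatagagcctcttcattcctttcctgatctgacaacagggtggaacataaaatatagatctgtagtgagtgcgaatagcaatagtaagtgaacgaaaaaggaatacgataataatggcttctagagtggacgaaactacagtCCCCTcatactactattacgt
HRP1 (chrXV:87594-87893, plus strand): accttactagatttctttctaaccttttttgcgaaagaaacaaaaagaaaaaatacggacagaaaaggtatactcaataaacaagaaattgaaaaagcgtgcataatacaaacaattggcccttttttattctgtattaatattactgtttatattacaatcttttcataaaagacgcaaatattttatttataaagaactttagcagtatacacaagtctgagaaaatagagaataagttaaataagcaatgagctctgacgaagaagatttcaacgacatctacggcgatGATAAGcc
OLE1 (chrVII:398378-398677, plus strand): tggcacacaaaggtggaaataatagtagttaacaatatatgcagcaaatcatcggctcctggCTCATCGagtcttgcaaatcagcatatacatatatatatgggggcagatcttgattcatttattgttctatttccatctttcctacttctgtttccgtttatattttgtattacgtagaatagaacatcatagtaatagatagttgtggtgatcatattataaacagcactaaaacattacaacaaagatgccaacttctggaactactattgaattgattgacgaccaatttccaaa
FAA4 (chrXIII:759557-759856, plus strand): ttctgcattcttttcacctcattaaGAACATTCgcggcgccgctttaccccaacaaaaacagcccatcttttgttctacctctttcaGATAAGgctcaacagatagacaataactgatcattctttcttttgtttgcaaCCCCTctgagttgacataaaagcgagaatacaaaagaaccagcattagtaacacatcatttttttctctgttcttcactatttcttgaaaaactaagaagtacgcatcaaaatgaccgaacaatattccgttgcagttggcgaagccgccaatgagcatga
ROX3 and OLE1 each hold CGATGAG on the reverse strand (as CTCATCG), at -228 from the start in ROX3 and at -188 in OLE1, and ROX3 also holds AGGGG on the reverse strand within the gene. CGATGAG was found in 415 of all 5662 promoters of this length (7.33%). FAA4 holds AGGGG (on the reverse strand), GAANNTTC and GATAAG before its start. HRP1 has none of the 8 motifs before its start, and its single match, GATAAG, lies within the gene. Of the 31 promoters of genes higher in all 3 treated libraries, 10 hold GATAAG (32.3%, against 14.6% of all promoters), 6 hold GAANNTTC (19.4%, against 12.1%), 5 hold AGGGG (16.1%, against 22.0%) and 3 hold CGATGAG (9.68%). These shares describe letters in a window and were not tested.

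The second set holds genes that were low in 2A alone, SDP1, which encodes a phosphatase of the cell wall integrity kinase Slt2, and YKL107W, which encodes an aldehyde reductase. They are shown for AGGGG, which was found in 77 of the 207 promoters of genes lower in 2A alone (37.2%), against 55 of the 278 promoters of genes higher in 2A alone (19.8%) and 22.0% of all promoters.
SDP1 (chrIX:150309-150608, plus strand): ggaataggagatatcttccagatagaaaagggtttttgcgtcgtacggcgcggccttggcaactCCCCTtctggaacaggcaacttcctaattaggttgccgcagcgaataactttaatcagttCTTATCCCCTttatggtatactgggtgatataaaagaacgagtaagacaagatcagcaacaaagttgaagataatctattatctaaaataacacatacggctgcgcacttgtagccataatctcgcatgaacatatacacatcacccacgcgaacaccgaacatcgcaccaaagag
YKL107W (chrXI:235891-236190, plus strand): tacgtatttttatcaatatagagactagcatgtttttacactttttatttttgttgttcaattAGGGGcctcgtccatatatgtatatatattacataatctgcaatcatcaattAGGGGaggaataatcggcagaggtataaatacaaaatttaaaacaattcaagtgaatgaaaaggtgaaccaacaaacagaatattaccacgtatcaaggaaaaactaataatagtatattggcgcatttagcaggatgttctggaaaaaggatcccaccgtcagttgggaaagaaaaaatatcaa
Both promoters hold AGGGG at 2 places. In SDP1 both copies are on the reverse strand (as CCCCT), and the one nearer to the gene overlaps a GATAAG, also on the reverse strand.

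With all 3 treated libraries in the comparison, no gene passed the threshold of an adjusted p under 0.05 when the 12 libraries were fitted with edgeR's quasi-likelihood method (0 of 5909, 0.0%), and the smallest adjusted p was 0.489. Before adjustment, 536 genes had a p under 0.05 (9.07%), of which 284 were higher (4.81%) and 252 lower (4.26%) with 1 µg/mL PeAfpA. Fitted to the same libraries, DESeq2 called 14 genes (0.237%), all of them higher in the treated cultures. Without independent filtering, which had left 5269 genes without an adjusted p, 12 of the 14 calls were lost (adjusted p 0.123 to 0.207), and only those of ROX3 and HRP1 were kept. Over the same libraries limma-voom called 2 (0.0338%), with a quality weight of 0.174 on 2A and of 3.37 on 2B. The 3 treated libraries lay above every control for 445 genes (7.53%) and below every control for 504 (8.53%). The shared class took in 34 of the genes above (0.575% of those tested) and 49 of the genes below (0.829%). Its limit fell between YDR524C-B (smallest difference of a treated library 0.51) and YDR042C (0.50, not counted) for genes higher, and between YLR031W (0.50) and RNY1 (0.49, not counted) for genes lower. Without 2A the genes at an unadjusted p under 0.05 were 263 (4.45%), and the smallest adjusted p was 0.992. Unless stated otherwise, the log2 fold changes that follow are those of edgeR, 1 µg/mL PeAfpA over control, for which no adjusted p was below 0.489. In RNA from a whole culture, a change in the share of cells of one kind and a change in the RNA per cell cannot be told apart.

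ROX3 and HRP1 were higher in every treated library than in every control, in 2B and 2C as well as in 2A. ROX3 (YBL093C, chromosome II, 44256 to 44918 of R64, minus strand), the Mediator subunit, had normalized counts of 7942, 3807 and 3347 in 2A, 2B and 2C, against 2455, 1652 and 1518 in 1A, 1B and 1C. The lowest treated library stood above the highest control, which was 1A. Its log2 fold change was 1.42 (standard error 0.30, unadjusted p = 0.00037), and 0.94 without 2A. HRP1 (YOL123W), a subunit of the cleavage factor that binds the 3′ ends of new transcripts, had 6774, 4619 and 3868 in 2A, 2B and 2C, against 2876, 2200.0 and 1911 in 1A, 1B and 1C. Again 2A was the highest library and 1A the highest control, and the groups did not overlap. The log2 fold change of HRP1 was 1.13 (standard error 0.23, unadjusted p = 0.000277), and 0.87 without 2A. These were the only genes that both DESeq2 (adjusted p = 0.000449 for ROX3 and 0.000236 for HRP1) and limma-voom (adjusted p = 0.0494 for ROX3 and 0.0494 for HRP1) called. An exact permutation test of the normalized counts gave p = 0.1 for each (two-sided), the smallest that 3 against 3 libraries allow.

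By their medians, the partners of the 2 proteins did not show the same pattern. Of 25 Mediator subunits measured, ROX3 was the only member at an unadjusted p under 0.05, and the median difference of the 25 from the controls was -0.07 in 2A, 0.00 in 2B and 0.07 in 2C (log2). Of 20 genes of mRNA cleavage and polyadenylation, HRP1 and 1 other member were higher at that p and 0 were lower, with medians of -0.12 in 2A, -0.05 in 2B and -0.04 in 2C. The 12 subunits of RNA polymerase II held 0 genes at that p in either direction. Among 16 genes of nuclear mRNA binding and export, 5 were higher at an unadjusted p under 0.05 and 0 lower, beside 4.81% and 4.26% of all genes. Their medians were 0.47 in 2A, 0.10 in 2B and 0.21 in 2C. The member with the smallest p was NAB2, whose product binds the poly(A) tails of nuclear transcripts, with normalized counts of 4551, 1998 and 1978 in 2A, 2B and 2C, against 1772, 1276 and 1283 in 1A, 1B and 1C, and a log2 fold change of 0.98 (unadjusted p = 0.00609). The most abundant, PAB1, the poly(A)-binding protein, had 15076, 10187 and 9564 in 2A, 2B and 2C, against 8905, 7641 and 7009 in 1A, 1B and 1C. In both genes 2A was the highest library, and 2B and 2C were closer to the highest control than to 2A. NAB2 is of the 2A-alone class, and PAB1 is of neither class. DBP2, an RNA helicase that remodels transcripts as they are made, was among the genes called by DESeq2 (adjusted p = 0.0468, and 0.2 without independent filtering). It had 11969, 6375 and 3949 in 2A, 2B and 2C, but the control 1A, at 4782, lay above 2C, while 1B and 1C had 1729 and 1967.

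**Figure D2:**
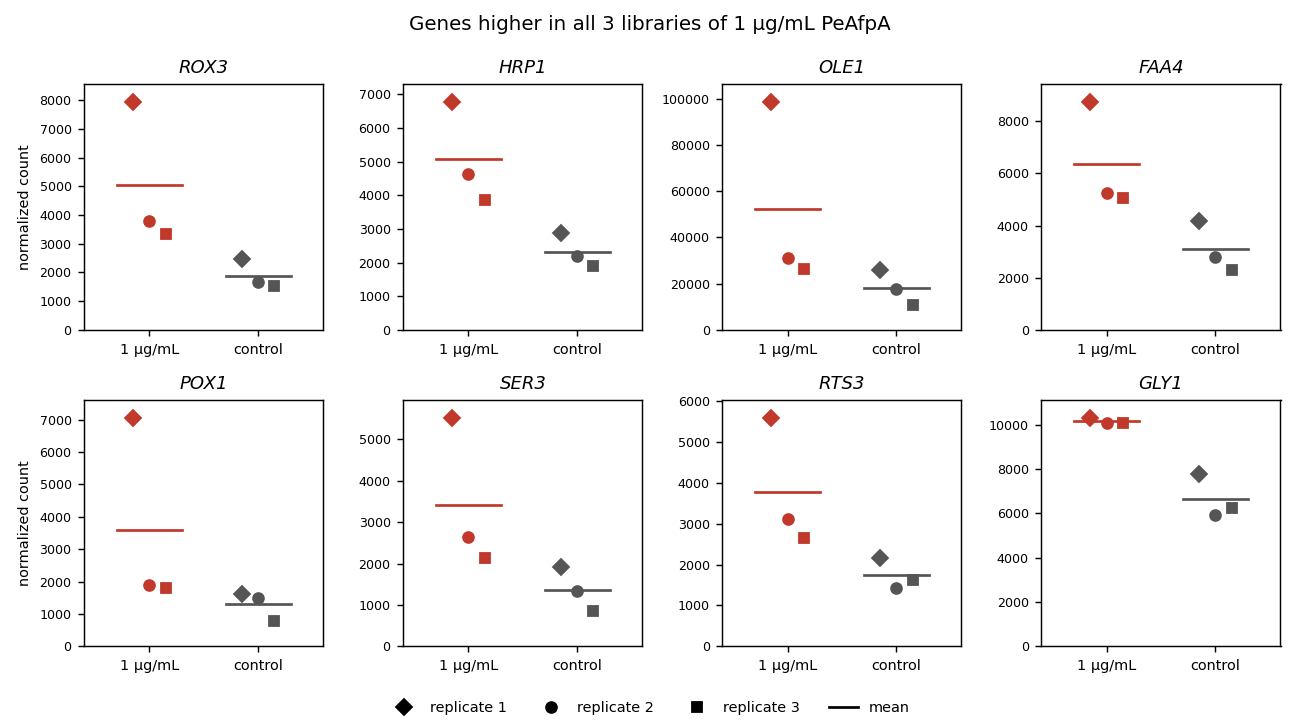
Normalized counts (vertical axis, from 0) of 8 genes in the 3 libraries of 1 µg/mL PeAfpA (left, red) and the 3 control libraries (right, grey), with each replicate as a point and the mean as a line. In all 8 genes the lowest treated library lies above the highest control, and 2A, the diamond, is the highest library, by little only in GLY1, whose treated libraries lie between 10055 and 10275.

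Several genes of fatty acid metabolism were higher in all 3 treated libraries. OLE1, which encodes the only fatty acid desaturase of this yeast, had normalized counts of 98681, 31154 and 26537 in 2A, 2B and 2C, against 25828, 17580.0 and 10926 in 1A, 1B and 1C. The treated libraries all lay above the controls, but 2C exceeded 1A by little, and the log2 fold change of 1.53 (standard error 0.51) was 0.68 without 2A. FAA4, which encodes an acyl-CoA synthetase that activates imported fatty acids, had 8747, 5260.1 and 5078 in 2A, 2B and 2C, against 4161, 2808 and 2316 in 1A, 1B and 1C. Its log2 fold change was 1.04 (standard error 0.29, unadjusted p = 0.00323), and 0.75 without 2A. DESeq2 called both with independent filtering (adjusted p = 0.0468 for OLE1 and 0.0443 for FAA4) but not without it (0.2 and 0.123). POX1, the acyl-CoA oxidase that opens peroxisomal β-oxidation, had 7039, 1896 and 1818 in 2A, 2B and 2C, against 1627, 1493 and 792 in 1A, 1B and 1C. Here 2B and 2C stood just above the highest control, and the log2 fold change of 1.46 was 0.52 without 2A. Of 18 genes of fatty acid oxidation and carnitine transport, 2 were higher at an unadjusted p under 0.05 and 0 lower, beside 4.81% and 4.26% of all genes. Their medians were 0.32 in 2A, 0.18 in 2B and 0.22 in 2C. The smallest p was that of the thioesterase gene TES1 (3198, 1672 and 1928 in 2A, 2B and 2C, against 1339, 1412 and 1228 in 1A, 1B and 1C, log2 fold change 0.77, unadjusted p = 0.0103), and the most abundant member, the carnitine acetyltransferase gene YAT2, was lower in 2A than in the controls, with 12356, 21962 and 22446 in 2A, 2B and 2C, against 21030.5, 17001 and 14764 in 1A, 1B and 1C.

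Among genes of amino acid supply, the difference of GLY1 was as large without 2A as with it. GLY1, which encodes the threonine aldolase that makes glycine, had 10275, 10090.0 and 10055 in 2A, 2B and 2C, against 7776, 5920.5 and 6229 in 1A, 1B and 1C. The 3 treated libraries were nearly level, with a log2 fold change of 0.61 (standard error 0.22) that was 0.61 without 2A, and DESeq2 called the gene with independent filtering (adjusted p = 0.0468) but not without it (adjusted p = 0.207). SER3, whose product takes the first step from glycolysis to serine, had 5508, 2643 and 2129 in 2A, 2B and 2C, against 1925, 1342 and 859.8 in 1A, 1B and 1C (log2 fold change 1.32, 0.80 without 2A). Its locus overlaps the non-coding RNA gene SRG1, so reads of the pair could be counted together. BAP2, a permease of branched-chain amino acids, had 4778, 2998 and 2900.4 in 2A, 2B and 2C, against 2816, 1542 and 1522 in 1A, 1B and 1C, and 2C exceeded 1A by little. Among 18 amino acid permeases 3 were higher at an unadjusted p under 0.05 and 0 lower, beside 4.81% and 4.26% of all genes. The 2A, 2B and 2C libraries lay above every control for 12, 12 and 7 of the 18 permeases, and below every control for 4, 0 and 1, beside 35.5%, 22.1% and 24.4% of all genes above and 38.8%, 24.3% and 27.5% below. The medians of the permeases were 0.37 in 2A, 0.33 in 2B and 0.25 in 2C, and 0.32 was the median log2 fold change without 2A, against 0.39 with it. The permease BAP3 had the smallest p of the list (5111, 2220.4 and 1883 in 2A, 2B and 2C, against 1715, 1327 and 1644 in 1A, 1B and 1C), and AGP1, a broad permease, was the most abundant (23317, 24570.3 and 21839 in 2A, 2B and 2C, against 19369, 18374 and 14692 in 1A, 1B and 1C).

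Nitrogen catabolite genes, which serve the use of poor nitrogen sources, had their highest median in 2B. Of the 26 measured, 12 lay above every control in 2A, 18 in 2B and 12 in 2C, beside 35.5%, 22.1% and 24.4% of all genes. Below every control lay 10 in 2A, 0 in 2B and 2 in 2C, beside 38.8%, 24.3% and 27.5% of all genes. Their medians were 0.09 in 2A, 0.37 in 2B and 0.18 in 2C. At an unadjusted p under 0.05 only 2 were higher and 0 lower, beside 4.81% and 4.26% of all genes. GLT1, the glutamate synthase gene, had the smallest p (7802, 4106 and 3647 in 2A, 2B and 2C, against 3323, 3429 and 3046 in 1A, 1B and 1C), and GLN1, the glutamine synthetase gene, was the most abundant (47654, 41541 and 45489 in 2A, 2B and 2C, against 38129.5, 41509 and 33278 in 1A, 1B and 1C). In GLN1 2B lay level with the control 1B, while all 3 treated libraries of GLT1 lay above the controls. GLT1 is nevertheless of the 2A-alone class.

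The other genes named from the shared higher set have separate roles. MTH1, which holds hexose transporter genes repressed when glucose is scarce, had 3352, 2534 and 2567 in 2A, 2B and 2C, against 2304, 1324 and 1379 in 1A, 1B and 1C. Its log2 fold change was 0.76 (unadjusted p = 0.00793), and 0.62 without 2A. The 13 hexose transporter and sensor genes measured had medians of 0.59 in 2A, 0.34 in 2B and 0.24 in 2C. Of the 13, 2 were higher at an unadjusted p under 0.05 and 0 lower, beside 4.81% and 4.26% of all genes. HXT5, the most abundant transporter, had 15590.1, 23074 and 22161 in 2A, 2B and 2C, against 23782, 19509 and 16284 in 1A, 1B and 1C, and its groups overlapped. FTR1, the high-affinity iron permease, had 3347, 1814 and 1896 in 2A, 2B and 2C, against 1769, 1165 and 923 in 1A, 1B and 1C (log2 fold change 0.87, 0.54 without 2A), with 2B and 2C just above 1A. RTS3, a putative component of the protein phosphatase 2A complex, had 5566, 3109 and 2656 in 2A, 2B and 2C, against 2149, 1422 and 1633 in 1A, 1B and 1C (log2 fold change 1.12, 0.74 without 2A). DIF1, which governs the nuclear import of small ribonucleotide reductase subunits, had 629, 391 and 347 in 2A, 2B and 2C, against 248, 183 and 231 in 1A, 1B and 1C (log2 fold change 1.04, 0.75 without 2A). In RTS3 and DIF1 even the lowest treated library was well above the highest control. YKR041W, an uncharacterised gene whose product was placed at the mitotic spindle, had 294, 145 and 93.9 in 2A, 2B and 2C, against 78.7, 39.9 and 44.9 in 1A, 1B and 1C (log2 fold change 1.70, 1.14 without 2A), and 2C exceeded 1A by little. DESeq2 without independent filtering called it, with an adjusted p of 0.0467.

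The largest log2 fold change in the shared class among genes with a mean of at least 50 counts was that of NCW2, which encodes a wall protein anchored by glycosylphosphatidylinositol, and it rested on 2A. Its normalized counts were 11499, 849.6 and 772 in 2A, 2B and 2C, against 575, 561 and 451 in 1A, 1B and 1C. Here 2B and 2C lay above every control, and 2A stood far above both. DESeq2 called the gene with independent filtering (adjusted p = 0.0468) but not without it (adjusted p = 0.2), and its log2 fold change of 3.05 (standard error 0.87) was 0.63 without 2A.

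RTS3 and the genes that follow were called by DESeq2 as well, all but CYC3 with independent filtering only (adjusted p = 0.0468 for RTS3, and 0.174 without the filtering). HHT1, a histone H3 gene, had 12458, 6849 and 6245 in the treated libraries, against 5225, 4919 and 4472 in the controls, and PAL2, whose product acts in endocytosis, had 6784, 2990.2 and 3425 in the treated libraries, against 2628, 2108 and 2313 in the controls. In both, 2A stood far above the other treated libraries. TPO4, a polyamine exporter, had 5901, 3277 and 3231 in the treated libraries, against 2744, 2294 and 2305 in the controls, and DOT6, a repressor of ribosome biogenesis genes that binds the PAC element, had 5894, 4482 and 4094 in the treated libraries, against 3419, 2470.0 and 3437 in the controls. SDS23, a gene of cell separation, had 8705, 7066 and 7100.2 in the treated libraries, against 6093, 4815 and 5179.6 in the controls. All 5 had an adjusted p of 0.0468 by DESeq2 with the filtering and lost the call without it (0.184 for DOT6 to 0.205 for TPO4). They had log2 fold changes of 0.81 for HHT1, 0.90 for PAL2, 0.76 for TPO4, 0.63 for DOT6 and 0.51 for SDS23 by edgeR. Without 2A these were 0.44 for HHT1, 0.46 for PAL2, 0.42 for TPO4, 0.47 for DOT6 and 0.41 for SDS23. HHT1 and TPO4 are of the 2A-alone class. PAL2, DOT6 and SDS23 are of neither class, and the same holds for RCF2 and CYC3, which follow. RCF2, a subunit needed for respiratory supercomplexes, had 5053, 5919.8 and 5979.8 in the treated libraries, against 4177, 4017 and 3588 in the controls, and 2A was the lowest treated library (adjusted p = 0.0468, and 0.195 without the filtering). CYC3, which encodes the haem lyase of cytochrome c, had 3305, 2998 and 3181 in the treated libraries, against 2309.9, 2472 and 2003 in the controls. It was called by DESeq2 only without independent filtering or with the filtering tuned at 0.1 (adjusted p = 0.0123 without it), and its 3 treated libraries lay close together. Of the 17 genes of haem and cytochrome c assembly, 3 were higher at an unadjusted p under 0.05 and 0 lower, beside 4.81% and 4.26% of all genes. Their medians were 0.18 in 2A, 0.05 in 2B and 0.18 in 2C.

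Over the 34 genes of the shared class that were higher, 2A was the treated library farthest from the controls in 26, beside 3859 of all 5909 genes. The control nearest to the treated libraries was 1A in 29 of the 34, beside 241 of the 445 genes above every control. The median difference of the 34 genes from the control mean was 1.30 in 2A, 0.79 in 2B and 0.66 in 2C. Of the 34, 24 had a mean of at least 50 counts. Leaving out 1A, which stood nearest, lowered the smallest adjusted p of all genes to 0.103, still with 0 genes called.

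Of the 49 genes lower in all 3 treated libraries, 30 (61.2%) had no entry in the reference annotation, against 247 of all 5909 genes (4.18%). A mean under 50 counts was likewise found for 30, and 25 had both properties. In 35 of the 49 the treated library farthest from the controls was 2C, beside 1324 of all 5909 genes. In 31 of the 49 the nearest control was 1B, which was the lowest control in 2097 of all 5909 genes. YKL153W, the most abundant of the features without an annotation among the 10 with the largest decrease, had 115, 139 and 25.4 in 2A, 2B and 2C, against 369, 140.5 and 282 in 1A, 1B and 1C. In it 2B was barely below 1B, and 2C was far below every other library. YCR013C had 60.1, 84.4 and 15.5 in 2A, 2B and 2C, against 207, 104 and 185 in 1A, 1B and 1C, YAL004W 27.8, 50.5 and 5.52 in 2A, 2B and 2C against 129.7, 55.8 and 127 in 1A, 1B and 1C, and YLL044W 32.3, 43.1 and 6.63 in the treated libraries against 118, 49.8 and 80.6 in the controls. The pattern of these 3 was that of YKL153W, with 2C lowest and 1B the lowest control. YDR241W, also without an annotation, had 46.8, 43.1 and 16.6 in 2A, 2B and 2C, against 99.1, 54.8 and 70.5 in 1A, 1B and 1C. Features without an annotation together held 0.191% of the counts in 2C, 0.24% in 2A and 0.238% in 2B, against 0.323% in 1A, 0.214% in 1B and 0.258% in 1C. Whether these features share reads with neighbouring genes was not analysed here, and the part of such reads in the differences was not tested.

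The annotated genes named from the shared lower set had few counts. GAL7, which encodes the transferase of galactose use, had 23.4, 62.4 and 51.9 in 2A, 2B and 2C, against 77.8, 111 and 112 in 1A, 1B and 1C. Every treated library lay below every control, 2A the lowest, and the log2 fold change was -1.11 (standard error 0.38, -0.79 without 2A). SYF2, a splicing factor, had 89.1, 126 and 190.0 in 2A, 2B and 2C, against 233, 329.8 and 263 in 1A, 1B and 1C (log2 fold change -1.03, unadjusted p = 0.00138). HIS6, an enzyme of histidine synthesis, had 66.8, 125 and 165 in 2A, 2B and 2C, against 192, 289.9 and 241 in 1A, 1B and 1C (log2 fold change -1.02, unadjusted p = 0.00414). For these 2 genes 2C was the treated library nearest to the controls. YLR456W, a gene of unknown function, had 74.6, 82.6 and 46.4 in 2A, 2B and 2C, against 132, 146 and 146 in 1A, 1B and 1C, and YLR031W, likewise of unknown function, had 86.9, 234 and 173 in 2A, 2B and 2C, against 282, 357 and 366 in 1A, 1B and 1C. KEI1, which encodes a subunit of the enzyme that makes inositol phosphorylceramide, had 276, 291 and 227 in 2A, 2B and 2C, against 379.7, 487 and 431 in 1A, 1B and 1C (log2 fold change -0.71, -0.73 without 2A). The 3 treated libraries of KEI1 lay close together and below all controls, and it had the smallest p of the 29 sphingolipid genes. Of the 29, 6 were higher and 1 lower at an unadjusted p under 0.05, beside 4.81% and 4.26% of all genes.

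Genes of stored carbohydrate had medians below the controls in all 3 treated libraries, most so in 2A. Of 21 genes of trehalose and glycogen metabolism, 6 were lower and 1 higher at an unadjusted p under 0.05, beside 4.26% and 4.81% of all genes, and 12, 5 and 8 lay below every control in 2A, 2B and 2C, beside 38.8%, 24.3% and 27.5% of all genes. Their medians were -0.48 in 2A, -0.18 in 2B and -0.19 in 2C, and the median log2 fold change was -0.30, and -0.21 without 2A. PGM2, the phosphoglucomutase gene, had the smallest p, with 1464, 2189 and 2058 in 2A, 2B and 2C, against 2087, 3285 and 3747 in 1A, 1B and 1C. TSL1, a subunit of trehalose synthase, was the most abundant member, with 3321, 3822 and 3111 in 2A, 2B and 2C, against 3031, 5538 and 7024 in 1A, 1B and 1C. In both, the control 1A stood apart from 1B and 1C: it lay below 2B in PGM2 and below 2A, 2B and 2C in TSL1. Of 32 heat shock proteins and chaperones, 1 was lower at that p, the cyclophilin gene CPR6 (1242, 2041 and 2096 in 2A, 2B and 2C, against 2033, 3573 and 2913 in 1A, 1B and 1C), and 0 higher, with medians of -0.43 in 2A, -0.04 in 2B and -0.08 in 2C. Below every control lay 22, 3 and 6 of the 32 in 2A, 2B and 2C, beside 38.8%, 24.3% and 27.5% of all genes. Above every control lay 5, 8 and 8, beside 35.5%, 22.1% and 24.4% of all genes. HSP12, the most abundant of the 32, went the other way in 2A, with 112737, 65896 and 67245 in 2A, 2B and 2C, against 61003, 74372 and 47176 in 1A, 1B and 1C. The median log2 fold change of the 32 was -0.20, and -0.05 without 2A. Autophagy genes (31 measured) had medians of -0.41 in 2A, -0.10 in 2B and -0.02 in 2C and peroxins (29 measured) medians of -0.28 in 2A, -0.13 in 2B and 0.04 in 2C, with 3 and 4 members lower at an unadjusted p under 0.05 and 0 higher in either list. Without 2A the median log2 fold changes were -0.07 for autophagy and -0.07 for peroxins, against -0.18 and -0.15 with it.

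The genes carried by 2A alone outnumbered the shared ones. There were 289 of them higher (4.89%) and 220 lower (3.72%), against 5 and 2 for 2B alone and 0 and 38 for 2C alone by the same rule. Library 2A lay above every control for 2097 genes and below every control for 2295. Since the class is defined on these libraries, its values are given as a description.

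**Figure D3:**
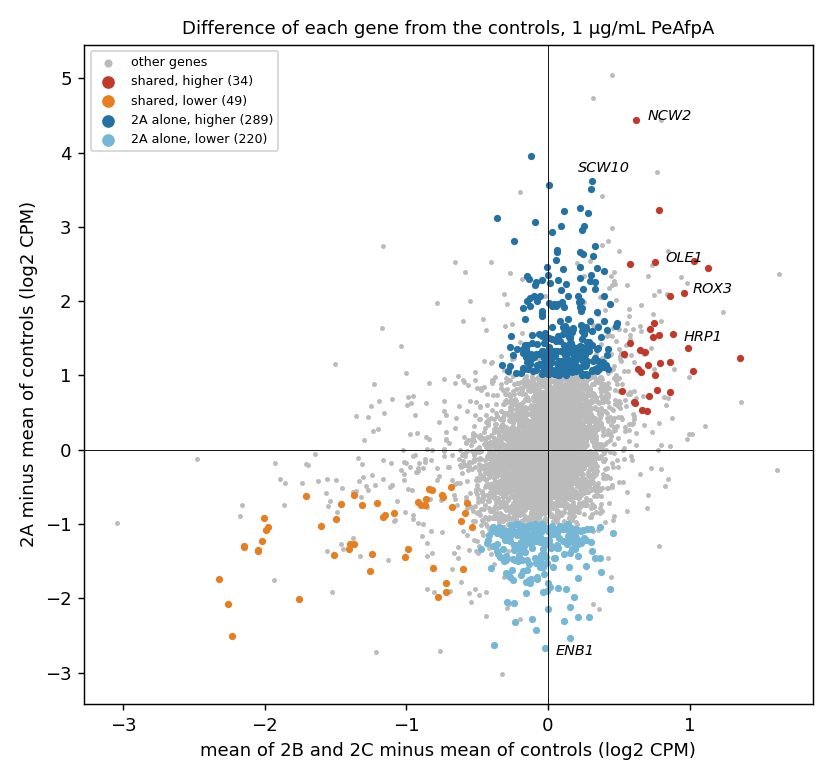
Difference of each of the 5909 genes from the control mean (log2 CPM) in 2A (vertical axis) against the mean of 2B and 2C (horizontal axis). The genes of the 2A-alone class lie along the vertical axis, 289 above and 220 below, and the shared class lies to the upper right (34 genes) and the lower left (49 genes).

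Cell wall genes led the genes higher in 2A alone. SCW10, a wall protein related to glucanases, had 12236, 1222 and 1252 in 2A, 2B and 2C, against 1159.6, 939 and 907 in 1A, 1B and 1C. Library 2A stood 3.62 above the control mean (log2). CHS1, a chitin synthase that repairs the wall as cells separate, had 9347, 945 and 656 in 2A, 2B and 2C, against 838, 677 and 852 in 1A, 1B and 1C, and CIS3, a mannoprotein of the PIR family, had 10699, 1289 and 1316 in 2A, 2B and 2C, against 1094, 1336 and 948 in 1A, 1B and 1C. TOS1, a covalently bound wall protein, had 12454, 1803 and 1489 in 2A, 2B and 2C against 1600.4, 1517 and 1488 in 1A, 1B and 1C. In these genes 2B and 2C lay within 0.5 (log2) of the control mean. YPS3, an aspartic protease of the cell surface, had 3660.3, 444 and 351 in 2A, 2B and 2C, against 389.9, 265 and 318 in 1A, 1B and 1C, SRL1, a wall mannoprotein, 1487, 204 and 190.0 in the treated libraries against 187, 138 and 162 in the controls, and TOH1, an anchored wall protein, 4196, 531 and 411 in the treated libraries against 439.9, 467 and 604 in the controls. The class held 14 of the 25 glucanase and cross-linking genes, 9 of 25 structural wall proteins and 4 of 24 genes of glucan and chitin synthesis among its higher genes. Its lower genes took in 1, 3 and 0 of these lists, in the same order. Of all genes, 4.89% were higher and 3.72% lower in 2A alone. Of the glucanase and cross-linking genes 12 were higher at an unadjusted p under 0.05 and 0 lower, beside 4.81% and 4.26% of all genes, and their medians were 1.65 in 2A, 0.23 in 2B and 0.09 in 2C. Their summed normalized count was 155578 in 2A, 73666 in 2B and 68340.1 in 2C, against 57968, 64232 and 69352 in 1A, 1B and 1C. Their median log2 fold change of 0.79 was 0.15 without 2A. Structural wall proteins had medians of 0.99 in 2A, 0.13 in 2B and 0.03 in 2C, with a median log2 fold change of 0.44, and 0.17 without 2A. The most abundant of them, SED1, had 121391, 45391 and 42659 in 2A, 2B and 2C, against 30329, 46592 and 52364 in 1A, 1B and 1C, so that 2B and 2C were within the range of the controls. UTH1, the most abundant gene of the glucanase list, did not follow it, with 22403, 26084 and 26189.8 in 2A, 2B and 2C, against 18212, 22382 and 25439 in 1A, 1B and 1C.

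Histone genes and several cell cycle genes were also higher in 2A. The 11 histone genes had medians of 1.36 in 2A, 0.05 in 2B and 0.15 in 2C, 7 of them in the 2A-alone class, and HTB1, the most abundant, had 12248, 6056 and 5473 in 2A, 2B and 2C, against 5432, 6836 and 5432 in 1A, 1B and 1C. Of 25 cyclins and cell cycle regulators, 8 were higher and 1 lower in 2A alone, with medians of 0.54 in 2A, 0.10 in 2B and 0.01 in 2C. The 2A-alone counts of both lists stand beside 4.89% of all genes higher and 3.72% lower in 2A alone. The member with the smallest p, WHI5, which encodes a repressor of the entry into the cell cycle, was not among the 8, for its level was 287, 320.2 and 356 in 2A, 2B and 2C, against 220.4, 213 and 246 in 1A, 1B and 1C, with 2C the highest. CLN3, the most abundant of them and the cyclin that opposes Whi5, had 1448, 2567 and 1936 in 2A, 2B and 2C, against 2134, 1484 and 1935 in 1A, 1B and 1C. The median log2 fold change of the histones was 0.72, and 0.07 without 2A, and that of the cyclin list was 0.21, and 0.00 without 2A. The 39 DNA replication genes showed this direction less, with medians of 0.07 in 2A, -0.05 in 2B and -0.03 in 2C. In 2A, 18 lay above and 10 below every control, beside 35.5% and 38.8% of all genes. The 2A-alone class held 5 of them higher and 0 lower, beside 4.89% and 3.72% of all genes. At an unadjusted p under 0.05, 2 were higher and 2 lower, beside 4.81% and 4.26% of all genes. The member of smallest p and the most abundant one, both ribonucleotide reductase genes, were high in 2A, RNR1 with 4761, 1196 and 1108 in 2A, 2B and 2C, against 1339, 814 and 739.8 in 1A, 1B and 1C and RNR4 with 21745, 7072 and 7867 in 2A, 2B and 2C, against 7189, 7179 and 6483 in 1A, 1B and 1C.

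Ribosomal protein genes were higher in 2A, and many lay slightly above the controls in 2B and 2C. Of 137 cytosolic ribosomal protein genes, 128 lay above every control in 2A, 70 in 2B and 66 in 2C, beside 35.5%, 22.1% and 24.4% of all genes, and 5, 8 and 10 lay below, beside 38.8%, 24.3% and 27.5%. Together the 3 treated libraries lay above every control for 46 (beside 7.53% of all genes). Only 1 was at an unadjusted p under 0.05, RPS26B (5957, 3388 and 3509 in 2A, 2B and 2C, against 3138, 2382 and 2436 in 1A, 1B and 1C). Their medians were 0.68 in 2A, 0.09 in 2B and 0.08 in 2C, and their summed normalized count was 742883 in 2A, 487274 in 2B and 484179 in 2C, against 476271, 455045 and 432934 in 1A, 1B and 1C. Glycolysis and fermentation (23 genes) had medians of 0.68 in 2A, 0.07 in 2B and 0.03 in 2C, and the respiratory chain and ATP synthase (38 genes) of 0.60 in 2A, 0.05 in 2B and 0.09 in 2C. ATP2, the most abundant gene of the respiratory list, had 70149, 37095 and 38574 in 2A, 2B and 2C, against 33552, 36974 and 33271 in 1A, 1B and 1C. For the 94 ribosome biogenesis factors the medians were 0.19 in 2A, 0.10 in 2B and 0.07 in 2C. At an unadjusted p under 0.05, 3 were higher and 0 lower, beside 4.81% and 4.26% of all genes. Their median log2 fold change of 0.11 turned to -0.07 with library size alone as the scaling. That setting moved the median of all genes from -0.02 to -0.18. The share of counts in the 50 most abundant genes (21.5%) and the scaling factor (0.846) set 2A apart from the other 5 libraries together with these lists. With library size alone, the 289 genes higher and 220 lower in 2A alone became 152 and 548. With relative log expression (RLE) factors they were 294 and 209. Beyond these changes of scaling, the part of either trait in the differences was not tested. The median log2 fold change of the ribosomal proteins was 0.31, and 0.13 with library size alone, and 0.09 without 2A. That of glycolysis and fermentation was 0.24, and 0.00 without 2A, and that of the respiratory chain was 0.24, and 0.06 without 2A.

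Sphingolipid genes (29 measured) had medians of 0.64 in 2A, 0.08 in 2B and 0.00 in 2C. At an unadjusted p under 0.05, 6 were higher and 1 lower, beside 4.81% and 4.26% of all genes. Their median log2 fold change of 0.24 was 0.01 without 2A. SUR2, a hydroxylase of the sphingoid base and the most abundant, had 6343, 5266 and 3209 in 2A, 2B and 2C, against 3844, 994 and 1392 in 1A, 1B and 1C, and the control 1A lay above 2C. The phosphoinositide and inositol genes (24 measured) had medians of -0.09 in 2A, 0.04 in 2B and -0.02 in 2C, with 3 higher and 1 lower at that p. INO2, an activator of phospholipid synthesis genes, had 873, 582 and 588 in 2A, 2B and 2C, against 536, 433 and 410.2 in 1A, 1B and 1C, and ITR1, the inositol transporter gene, 22525, 9023 and 9356 in 2A, 2B and 2C against 9306, 6711 and 5916 in 1A, 1B and 1C. For ITR1, 2B lay below the control 1A.

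**Figure D4:**
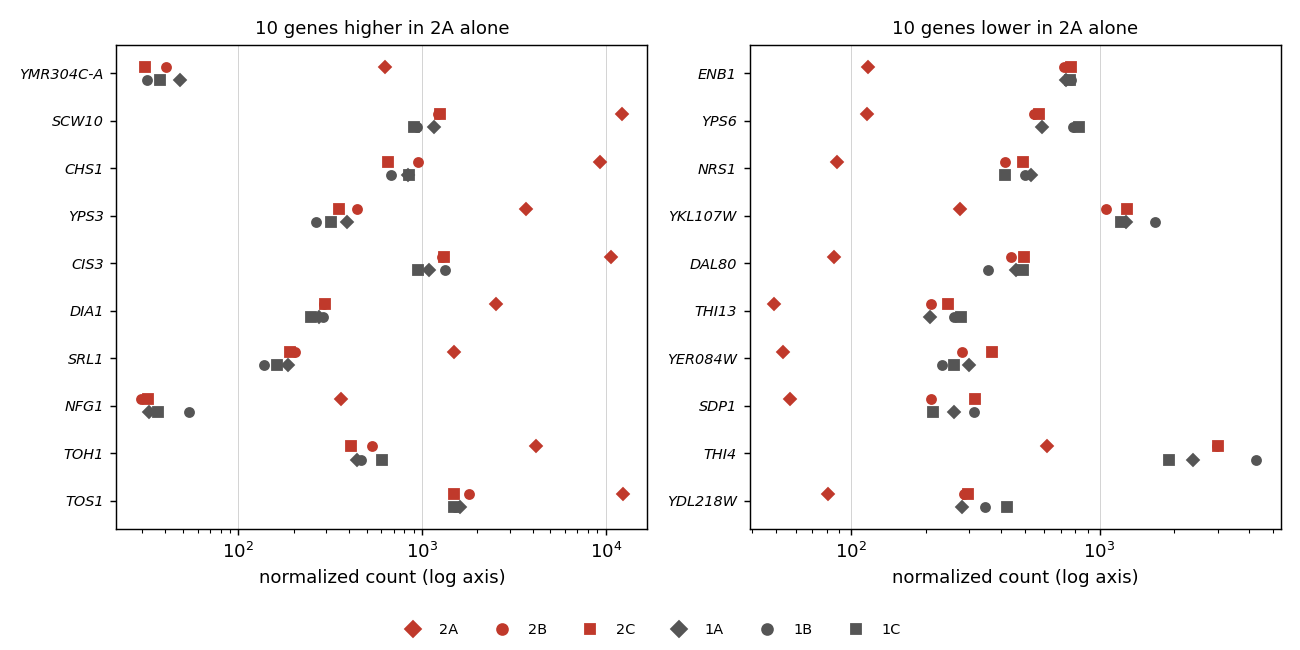
Normalized counts (horizontal log axis) of the 10 genes farthest above (left panel) and the 10 farthest below (right panel) the control mean in 2A alone, with treated libraries in red above the controls in grey. Library 2A, the red diamond, lies apart from the 5 other libraries in each gene, as for SCW10 at 12236 against 907 to 1252 in the others.

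Of the 220 genes lower in 2A alone, 6 were among the 22 thiamine genes, 5 among the 32 chaperones, 3 each among the iron, trehalose and glycogen, autophagy, peroxin and structural wall protein lists, and 2 among the nitrogen catabolite genes, with 2 or fewer in each other list. Of all genes, 3.72% were lower and 4.89% higher in 2A alone. The lists with 3 such genes had 21 to 31 members and the nitrogen list 26, so that counts of 2 or 3 say little about them. ENB1, a transporter of the siderophore enterobactin, had 117, 717 and 770.1 in 2A, 2B and 2C, against 734, 769 and 760.0 in 1A, 1B and 1C. The other 5 libraries lay within 717 to 770.1, and 2A stood at -2.67 from the control mean (log2). THI4, which makes the thiazole of thiamine, had 617, 2971 and 2994 in 2A, 2B and 2C, against 2374, 4271 and 1902 in 1A, 1B and 1C, and THI13, of the pyrimidine branch, had 49.0, 211 and 245 in 2A, 2B and 2C, against 207, 261 and 277 in 1A, 1B and 1C, although THI13 is nearly identical to THI5, THI11 and THI12 and the counting could divide or drop their reads. The 22 thiamine genes had medians of -0.45 in 2A, 0.10 in 2B and 0.15 in 2C, with 6 lower and 2 higher in 2A alone, and SNZ1, a gene of vitamin B6 synthesis in the same list, went the other way, with 5166, 1312 and 1607 in 2A, 2B and 2C, against 1299, 1145 and 1025 in 1A, 1B and 1C. Without 2A the median log2 fold change of the thiamine genes was 0.15. The 26 iron uptake genes had medians of -0.37 in 2A, 0.08 in 2B and 0.01 in 2C. Of these, 4 were lower and 2 higher at an unadjusted p under 0.05, beside 4.26% and 4.81% of all genes. FTR1, described above, was among the 2 that were higher. DAL80, the GATA repressor of nitrogen genes, had 85.7, 439 and 497 in 2A, 2B and 2C, against 461, 357 and 491 in 1A, 1B and 1C. NRS1, a nitrogen-responsive activator of the start of the cell cycle, had 88.0, 417 and 492 in 2A, 2B and 2C, against 531, 501 and 418 in 1A, 1B and 1C. In DAL80 and NRS1 2B and 2C lay within or next to the range of the controls. YKL107W, the aldehyde reductase gene whose promoter is printed above, had 274, 1061 and 1295 in 2A, 2B and 2C, against 1274, 1675 and 1221 in 1A, 1B and 1C, and SDP1 had 56.8, 210.1 and 317 in 2A, 2B and 2C, against 259, 312 and 213 in 1A, 1B and 1C. YPS6, a surface protease of the family of YPS3, went opposite to it, with 116, 543 and 570.1 in 2A, 2B and 2C, against 588, 782 and 827 in 1A, 1B and 1C. YER084W and YDL218W, both of unknown function, were also low, YER084W with 53.5, 281 and 370.1 in 2A, 2B and 2C, against 299, 233 and 261 in 1A, 1B and 1C, and YDL218W with 81.3, 286 and 297 in the treated libraries, against 279, 346 and 425 in the controls. The copper transporter gene CTR1 was spread over all libraries, with 919.8, 1780.0 and 3864 in 2A, 2B and 2C, against 5984, 3339.8 and 2794 in 1A, 1B and 1C. The zinc and copper list to which it belongs (14 measured) had medians of -0.50 in 2A, -0.04 in 2B and -0.03 in 2C.

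Some of the genes farthest above the controls in 2A alone are of uncertain counting or unknown role. DIA1, a gene of invasive growth, had 2539, 293 and 295 in 2A, 2B and 2C, against 276, 289.9 and 248 in 1A, 1B and 1C and overlaps the feature YMR316C-A, so that reads of the pair could be counted together. NFG1, a negative regulator of filamentous growth, had 363, 29.4 and 32.0 in 2A, 2B and 2C, against 32.4, 53.8 and 36.6 in 1A, 1B and 1C. YMR304C-A, which stood farthest from the controls, had 631, 40.4 and 30.9 in 2A, 2B and 2C, against 48.2, 31.9 and 37.5 in 1A, 1B and 1C and has no entry in the annotation.

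**Figure D5:**
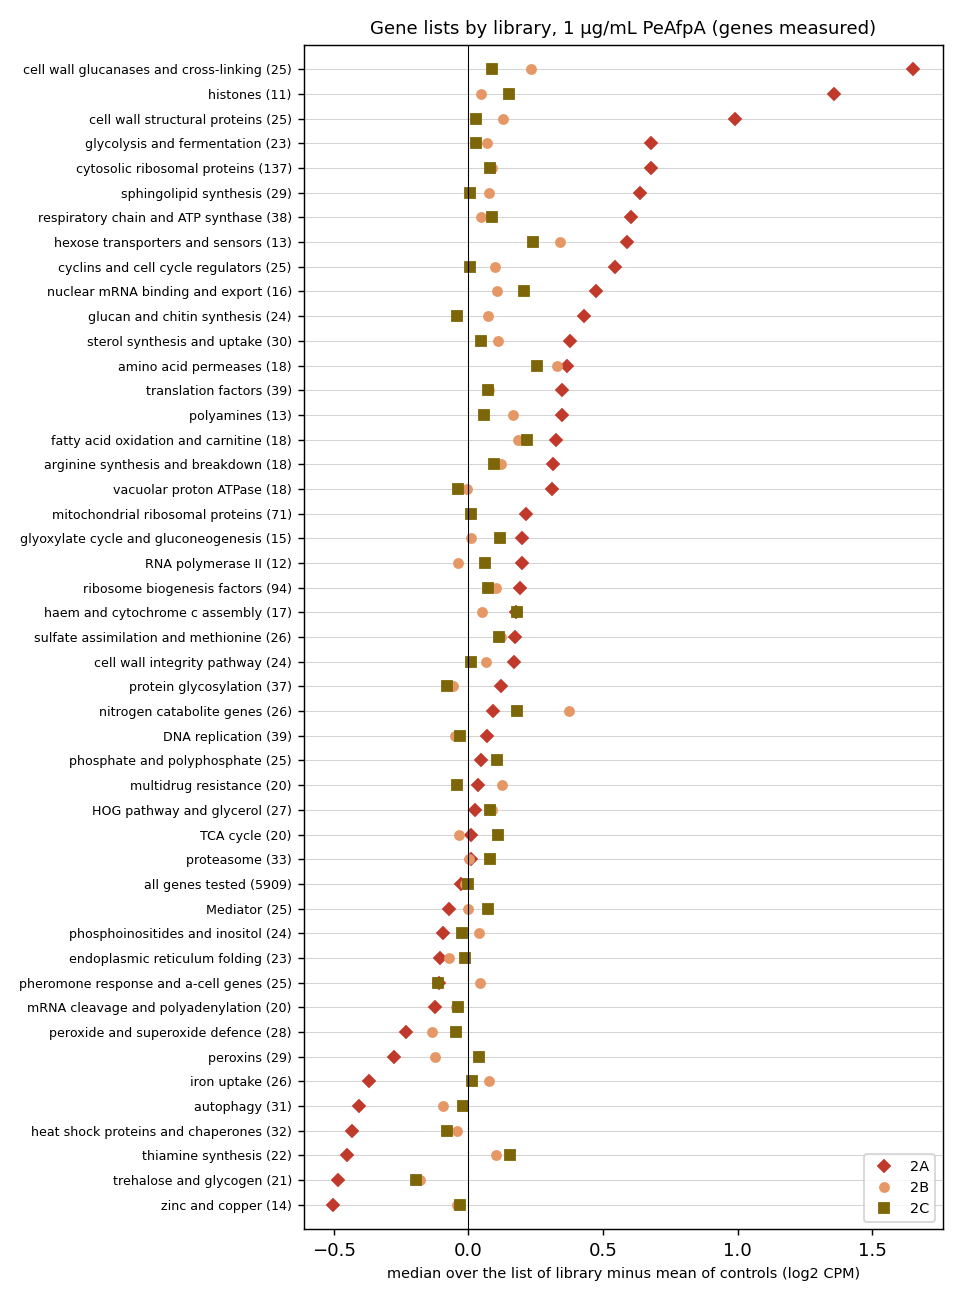
Median difference from the control mean (log2 CPM, horizontal axis) of the gene lists and of all genes tested, with the number of genes measured in brackets, in 2A (diamonds), 2B (circles) and 2C (squares). The medians of 2A reach from -0.50 to 1.65, while those of 2B and 2C stay between -0.19 and 0.37.

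Libraries 2B and 2C had few genes of their own. The 38 genes lower in 2C alone included 26 without an annotation (68.4%, against 4.18% of all genes). In 31 of the 38 the nearest control was 1B, which was the lowest control in 2097 of all 5909 genes. In 2B alone 5 genes were higher and 2 lower. Over all 5909 genes the median difference from the controls was -0.03 in 2A, -0.01 in 2B and 0.00 in 2C.

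Set against the highest dose, the 1 µg/mL libraries differed from those of 4 µg/mL for 1559 genes (26.4%) by edgeR. ROX3 averaged 5032 ± 2531 (SD, n = 3) normalized counts at 1 µg/mL, 2928 ± 65.1 at 2 µg/mL and 4725 ± 179 at 4 µg/mL (n = 3 each), beside 1875 ± 507 in the controls. HRP1 averaged 5087 ± 1508, 3074 ± 327 and 4043 ± 309 at 1, 2 and 4 µg/mL, beside 2329 ± 495 in the controls (SD, n = 3 each). Neither gene passed the test between 1 and 4 µg/mL, where the log2 difference (1 minus 4 µg/mL) was 0.09 (standard error 0.29) for ROX3 and 0.33 (standard error 0.22) for HRP1.

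Of the 34 shared higher genes, 7 were higher and 4 lower at 1 than at 4 µg/mL, beside 15.6% and 10.8% of all genes, so that the class lay near the background. POX1 was higher at 1 µg/mL, where it averaged 3584 ± 2992, than at 4 µg/mL, where it averaged 751 ± 400.1 (SD, n = 3 each, log2 difference 2.25, adjusted p = 0.015 by edgeR). GLY1 was also higher at 1 µg/mL (log2 difference 0.73, adjusted p = 0.0279), and YKR041W, RTS3 and DIF1 were lower than at 4 µg/mL (log2 differences -1.20, -0.91 and -1.05, with adjusted p-values of 0.0373, 0.0496 and 0.0179). Of the genes lower in 2A alone, 117 of 220 were higher and 2 lower at 1 than at 4 µg/mL, and of those higher in 2A alone, 6 of 289 were higher and 79 lower, beside the same shares of all genes. All these comparisons use the same 3 libraries of 1 µg/mL that define the classes. Of the genes lower in 2A alone, THI4 averaged 2194 ± 1366 at 1 µg/mL and 238 ± 67.3 at 4 µg/mL (SD, n = 3 each), and its single value in 2A, 617, lay between those means. The same order held for YKL107W, at 274 in 2A and 877 ± 535 over the 1 µg/mL libraries, against 121 ± 44.2 at 4 µg/mL (SD, n = 3 each).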

How the data were processed

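RNA-seq counts of 12 libraries were used, of which 6 (1 µg/mL PeAfpA and control, 3 flasks each) are compared here. Per the labels and the study's methods, the authors prepared libraries with the TruSeq RNA kit v2, used Trimmomatic 0.39 on single-end reads, Bowtie2 2.3.2 to map them to R64 and HTSeq 0.9.0 to count reads per gene. They deposited raw counts per gene, not normalized. How the counting treated strand, overlapping genes and mapping quality is not given in the sources used here. The sample labels and the study's methods give slightly different inocula.

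Of 6600 features, 5917 matched the RefSeq annotation of R64, and the other 683 held 0.172% to 0.323% of the counts of a library. The 5909 genes kept averaged 1 TPM or more across the 12 libraries (1 CPM without a known length), 247 of them without a length. The quasi-likelihood test of edgeR 4.0.16 in R 4.3.3 (glmQLFit and glmQLFTest, TMM scaling) was fitted to all 12 libraries, with Benjamini-Hochberg adjustment over all genes and a threshold of 0.05. Standard errors were obtained by dividing the absolute log2 fold change by the square root of F. Normalized counts are counts divided by each library's TMM-scaled size and multiplied by the mean of these sizes, and differences of single libraries are in log2 CPM with a prior count of 2. The 6 libraries held 7946071 to 9573555 counts each, and counting error weighs most on genes with a mean under 50 counts.

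Alternatives were DESeq2 1.42.0 (12 libraries with and without independent filtering, or the 2 groups), limma-voom (limma 3.58.1), edgeR with 2 groups, other filters and scalings, a replicate block, other class limits and each library left out. DESeq2 with filtering tuned at 0.1 was an alternative chosen after seeing the data. Named genes were those called by any fit with ROX3 and HRP1, the 10 largest rises and falls of each class with a mean of at least 50 counts, and in each list the gene of smallest p and the most abundant one, and BAP2, SPO13 and the genes at the class limits were named after their values were seen. The values of 1 gene list are not reported here. Members, lists and rules were chosen with earlier results of these data known. The fits were tested on simulated data. Blastn 2.17.0 served to find near-identical genes, and plots were made in Python 3.11.15 with matplotlib 3.10.9.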

Additional observations from a re-analysis of the deposited data

How the results depend on the processing

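The number of genes called was 14 by DESeq2 over the 12 libraries, 4 without its independent filtering, 3 with the filtering tuned at 0.1 and 2 by limma-voom, against 0 by edgeR in each of its settings, which include only the 2 groups, 2 other filters, 2 other scalings and each library left out, and 0 by DESeq2 with only the 2 groups. DESeq2's filtering left 5269 of 5909 genes without an adjusted p. Genes at an unadjusted p under 0.05 numbered 923 by limma-voom (41.2% higher) and 659 by DESeq2 (64.2% higher), against 536 (53.0% higher), and with library size alone 658, of which 20.4% were higher. With 1 library left out they numbered 248 (without 1C) to 758 (without 2C), with 263 without 2A and 340 without 1B. With library size alone, the treated libraries lay beyond every control in 153 genes higher and 1128 lower, the shared class held 18 and 92 genes and the 2A-alone class 152 and 548. All 18 of these shared higher genes were among the 34, and the class of 49 was kept whole. With a filter of at least 1 count the shared lower genes were 96. The class limits set the counts: shared higher genes numbered 1 at a limit of 1.0 and 168 at 0.25, and shared lower genes 7 and 207. Genes higher in 2A alone numbered 50 at a limit of 2.0, 914 at 0.5 and 141 with 2B and 2C held within 0.25, and genes lower 13, 911 and 109. The 29 log2 fold changes of called and shared genes kept their sign in every alternative. Most of these genes were chosen because their treated libraries lay beyond every control. The kept signs therefore follow largely from that choice and are no separate support.

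The deviations of same-numbered libraries from their group means correlated at 0.203 (A), -0.184 (B) and 0.0148 (C) over 5360 genes. Library 2A correlated best with 1A, of its own number, while 2B and 2C correlated best with 1C (0.263) and 1B (0.272). Deviations from a mean of 3 libraries are tied to one another, so these values do not decide whether the flasks were paired. With the replicate number as a block edgeR called 0 genes, with 473 at an unadjusted p under 0.05.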

Other observations

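Library 1A, a control, held some genes at the level of the treated libraries. The amino acid exporter gene AQR1 had normalized counts of 2010.0, 4082 and 2713 in 2A, 2B and 2C, against 3171, 716 and 942 in 1A, 1B and 1C, and NSR1, a nucleolar factor of ribosome biogenesis, had 12392, 13235 and 10734 in 2A, 2B and 2C, against 11201, 5114 and 7273 in 1A, 1B and 1C. In both, 1A lay above both other controls and within the range of 2A, 2B and 2C. In 1A, 128 genes were at least 1 higher (log2) than the mean of 1B and 1C, and 8 were at least 1 lower, while 1B had 9 and 132 by the same measure. The meiotic gene SPO13 had raw counts of 37, 4 and 3 in 2A, 2B and 2C, against 8, 7 and 5 in 1A, 1B and 1C.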
